A study of Mus musculus with 10 samples.

Results

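The genes described here encode mitochondrial complex I, the NADH dehydrogenase of the respiratory chain, and the factors that assemble it. They were taken as every gene whose platform symbol begins with Nduf and stands alone on its probe set, with the probe set of highest mean over all 10 arrays standing for each gene. This gave 44 genes of the 18194 named by a single symbol on the array, carried by 88 probe sets. Of these 36 were counted as subunits (Ndufa, Ndufb, Ndufc, Ndufs and Ndufv) and 8 as assembly factors (Ndufaf). The assay was the Affymetrix MOE 430V2 array, and the tissue was aorta from male mice. Which stretch of aorta was taken is not settled, since passages of the protocol differ. The first group, of 5 arrays, was wild type (C57Bl/6), and the other, also of 5 arrays, carried an NPAS2 mutation on a C57Bl/6J background. Any difference between these backgrounds cannot be told apart from the mutation. Npas2 is a transcription factor of the circadian clock. Both groups were killed at zeitgeber time 14 h, having lived on a cycle of 12 h light and 12 h dark for no less than 2 weeks and then 30 h or more without light. The sources used here give neither the ages, nor the kind of mutation, nor whether every array came from a different animal. The p values therefore cover only the variation among these arrays, which may be technical. The question is which transcripts of the vessel differ with the NPAS2 genotype.

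Complex I passes electrons from NADH to ubiquinone and pumps protons across the inner mitochondrial membrane. Its hydrophilic arm holds the flavin and iron-sulfur clusters, and its membrane arm holds subunits made from mitochondrial DNA. A core of conserved subunits does the catalysis, and many accessory subunits, all encoded in the nucleus, surround it. Assembly factors help the modules to fold, mature and join but are not part of the finished enzyme. In the mouse, brown fat, which surrounds the thoracic aorta, is a tissue very rich in mitochondria.

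The mutated gene itself was dim, so it is a weak check of the labels. Npas2 on probe set 1421037_at stood at 3.44, 3.71, 3.96, 3.94 and 3.48 in wild type (arrays F11, F14_2, F15, F16 and F17) and 3.43, 3.38, 3.41, 3.45 and 3.47 in the mutant (F12, F13, F18, F19 and F20). All 5 mutant arrays were below the wild-type mean, 3 wild-type arrays were above every mutant array by a clear margin, and the difference of -0.28 ± 0.10 (SE) gave an adjusted p of 0.249 by limma. Its other probe set, 1421036_at, was too dim to test, and where the mutation lies relative to either is not given in the sources used here.

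In mutant aorta nearly every complex I transcript had a somewhat higher mean than in wild type, yet no gene passed the test across the array. Of the 44 genes 42 were bright enough to be tested, 34 subunits and 8 assembly factors, and 0 were called at a limma adjusted p of 0.05, while 0.215% of all 22340 tested probe sets were called in either direction. The other two, Ndufa4l2 and Ndufb4, were too dim. Every tested subunit, 34 of 34, had a higher mean in the mutant, and so did 7 of 8 assembly factors, where 42.4% of all tested probe sets had a higher mean. At an unadjusted limma p of 0.05, 23 of the 42 were higher and 0 lower, against 4.75% of all tested probe sets higher and 10.6% lower. The groups did not overlap, with the mutant above, for 2 of the 42, against 1.5% of all tested probe sets. All these genes are read on the same 10 arrays, so these counts are not counts of independent genes. The count at an unadjusted p depended on single arrays. It was 9 without mutant F12, 9 without mutant F13, 9 without wild type F17, 12 without wild type F16, 15 without wild type F11, 15 without mutant F20, and 29 without wild type F14_2, where it was highest. Wild-type F11, F16 and F17 and mutant F12, F13 and F20 each moved it by more than 1.5 times. The count of 34 subunits with a higher mean stayed at 34 whichever array was left out.

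The differences were small and alike in size. Over the 34 tested subunits the median log2 difference, mutant minus wild type, was 0.22, a 1.16-fold higher level, and it ran from 0.07 to 0.35, with a median standard error of 0.10. The lowest, 0.07, was that of the dim Ndufb1, at 3.73 in wild type, and without Ndufb1 the range began at 0.11. The median over all tested probe sets was -0.03. Assembly factors had a median of 0.17 and a wider range, from -0.07 to 0.41. By symbol the median was 0.21 for the 13 tested Ndufa genes, 0.21 for the 10 tested Ndufb genes, 0.25 for the 2 Ndufc genes, 0.25 for the 6 Ndufs genes and 0.27 for the 3 Ndufv genes. The 6 core subunits analysed had a median of 0.26 and the 28 tested accessory subunits one of 0.22, and this difference was not tested. All of these are differences of log2 levels and say nothing of which transcript is the more abundant.

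**Figure D1:**
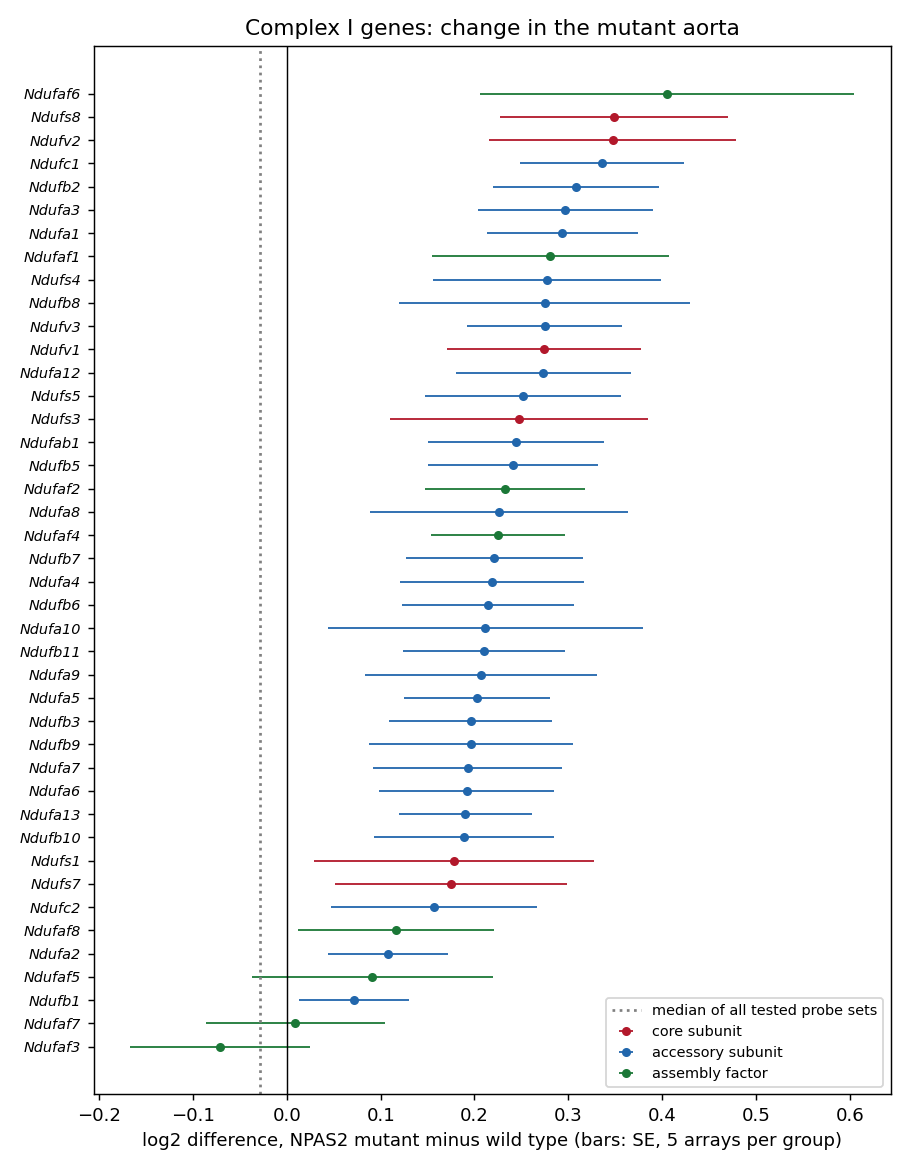
The log2 difference (mutant minus wild type, horizontal axis) of each of the 42 tested complex I genes, with standard errors from 5 arrays per group and colours for core subunits, accessory subunits and assembly factors. All 34 subunits lie above 0, between 0.07 and 0.35, to the right of the dotted median of all tested probe sets at -0.03.

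The promoters of the complex I genes were searched, in windows of 300 bases (250 before to 50 after the start, RefSeq, GRCm38.p6), for the letters of 5 motifs on both strands. Of the 44 genes 39 were matched to a window, all but Ndufa2, Ndufa4l2, Ndufaf6, Ndufb9 and Ndufs1. CACGTG, the E-box that the clock factors bind and its own reverse complement, was found in 2 of 39 genes (5.13%), where 8.09% of all 27025 genes with a window held it. GCGCANGCG, of the respiratory regulator NRF1, was in 8 of 39 (20.5%, against 7.03% of all genes). The letters overlap themselves on the opposite strand, so a site can be counted more than once within a window. CCGGAAG, of the GABP and ETS factors, was in 6 (15.4%, against 9.93%), AAGATGGCG, of YY1, in 5 (12.8%, against 1.64%), and TCAAGGTCA, of the ERR receptors, in 0 (against 0.466%). Below are the 250 bases before the start, 5′ to 3′ on the gene's strand, of both genes with an E-box (Ndufv1 and Ndufa7) and of a subunit with NRF1 letters, a core subunit with ETS letters and an assembly factor with NRF1 letters. Capitals mark the letters found.
Ndufv1, chr19:4012756-4013005, minus strand: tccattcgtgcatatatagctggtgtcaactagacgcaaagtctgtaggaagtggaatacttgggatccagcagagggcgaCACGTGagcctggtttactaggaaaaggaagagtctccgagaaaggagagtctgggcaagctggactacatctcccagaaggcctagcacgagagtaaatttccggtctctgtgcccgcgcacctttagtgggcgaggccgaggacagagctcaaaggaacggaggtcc
Ndufa7, chr17:33824322-33824571, plus strand: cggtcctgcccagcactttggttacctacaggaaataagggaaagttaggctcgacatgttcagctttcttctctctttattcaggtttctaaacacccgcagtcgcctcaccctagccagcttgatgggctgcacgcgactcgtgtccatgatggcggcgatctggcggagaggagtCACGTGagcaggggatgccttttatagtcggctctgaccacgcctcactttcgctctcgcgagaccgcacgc
Ndufa8, chr2:36049339-36049588, minus strand: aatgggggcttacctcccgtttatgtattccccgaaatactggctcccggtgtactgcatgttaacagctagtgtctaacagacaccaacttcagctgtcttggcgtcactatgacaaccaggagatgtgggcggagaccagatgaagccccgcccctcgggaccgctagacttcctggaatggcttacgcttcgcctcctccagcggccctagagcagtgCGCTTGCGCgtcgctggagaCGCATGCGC
Ndufs3, chr2:90904722-90904971, minus strand: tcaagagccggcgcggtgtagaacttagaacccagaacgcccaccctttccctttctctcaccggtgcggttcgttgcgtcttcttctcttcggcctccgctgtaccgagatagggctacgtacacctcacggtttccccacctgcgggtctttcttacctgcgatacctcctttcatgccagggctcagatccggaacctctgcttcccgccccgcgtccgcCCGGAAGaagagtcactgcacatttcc
Ndufaf4, chr4:24897833-24898082, plus strand: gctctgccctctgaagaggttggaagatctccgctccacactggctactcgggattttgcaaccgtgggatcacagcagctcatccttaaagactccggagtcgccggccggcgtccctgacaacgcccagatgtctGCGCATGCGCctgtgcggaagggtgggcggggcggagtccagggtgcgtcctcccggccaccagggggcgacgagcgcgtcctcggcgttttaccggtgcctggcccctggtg
For the genes with an E-box, the difference between mutant and wild type was 0.27 for Ndufv1 and 0.19 for Ndufa7 (limma adjusted p = 0.251 and 0.378). Whether any of these motifs has a part in the differences was not tested.

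Values are given below on the log2 scale in the order F11, F14_2, F15, F16, F17 for wild type and F12, F13, F18, F19, F20 for the mutant. The core subunits that take up electrons from NADH were Ndufv1, Ndufv2 and Ndufs1. Ndufv1, which binds NADH and the flavin (probe set 1456015_x_at), stood at 11.10, 11.24, 10.88, 10.87 and 10.84 in wild type and 11.44, 11.44, 11.07, 11.15 and 11.19 in the mutant. Its difference was 0.27 ± 0.10 (SE, n = 5 per group, limma adjusted p = 0.251), and wild-type F11 and F14_2 reached into the mutant range. Ndufv2, a small iron-sulfur subunit beside it (1428179_at), stood at 11.23, 11.33, 11.18, 11.23 and 10.88 in wild type and 11.77, 11.77, 11.17, 11.30 and 11.58 in the mutant. Here F12 and F13 were far above every wild-type array while F18 and F19 lay among them, and the difference of 0.35 ± 0.13 (SE) had an adjusted p of 0.252. For Ndufs1, the large iron-sulfur subunit (1425143_a_at), the values were 9.72, 10.04, 9.79, 9.67 and 9.45 in wild type and 10.24, 10.16, 9.55, 9.65 and 9.95 in the mutant. Mutant F18 and F19 were below the wild-type mean, and the difference of 0.18 ± 0.15 (SE) had an adjusted p of 0.570.

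The other core subunits analysed, of the part of the hydrophilic arm nearer ubiquinone, had a like order of arrays. Ndufs3, an early building block of the hydrophilic arm (1423737_at), stood at 9.67, 9.89, 9.66, 9.61 and 9.37 in wild type and 10.23, 10.08, 9.56, 9.65 and 9.93 in the mutant, a difference of 0.25 ± 0.14 (SE, limma adjusted p = 0.404). Ndufs7, which holds the last iron-sulfur cluster before ubiquinone (1424313_a_at), had 11.09, 11.50, 11.17, 11.06 and 11.04 in wild type and 11.59, 11.56, 11.13, 11.09 and 11.38 in the mutant. Its difference was 0.17 ± 0.12 (SE, adjusted p = 0.506), with 3 of 5 mutant arrays above the wild-type mean. Ndufs8, another iron-sulfur subunit (1423907_a_at), read 12.54, 12.63, 12.42, 12.34 and 12.16 in wild type against 13.02, 12.98, 12.51, 12.56 and 12.77 in the mutant. It had the largest difference among the subunits, 0.35 ± 0.12 (SE, adjusted p = 0.217), and only F18 and F19 reached down into the wild-type range.

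The subunits of smallest unadjusted p were mostly accessory ones, in the order Ndufc1, Ndufa1 and Ndufb2, and the groups did not overlap for Ndufc1 and Ndufb2. Ndufc1, a small subunit of the membrane arm (1448284_a_at), stood at 11.16, 11.18, 11.04, 10.98 and 10.95 in wild type and 11.55, 11.56, 11.27, 11.19 and 11.42 in the mutant. The lowest mutant array, F19, was just above the highest wild-type array, F14_2, and the difference of 0.34 ± 0.09 (SE) was a 1.26-fold higher level (limma adjusted p = 0.133). Its other probe set, 1416285_at, had a difference of 0.33 (adjusted p = 0.282) and its groups overlapped. Ndufb2, also of the membrane arm (1448483_a_at), had 9.78, 9.92, 9.76, 9.86 and 9.70 in wild type and 10.39, 10.17, 9.93, 9.96 and 10.10 in the mutant. The gap between F14_2 and the lowest mutant array, F18, was narrow, and the difference of 0.31 ± 0.09 (SE) had an adjusted p of 0.164. Another probe set of Ndufb2, 1442658_at, at 4.40 in wild type, had a difference of -0.18 (adjusted p = 0.478).

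Ndufa1, a small membrane subunit encoded on the X chromosome (1422241_a_at), stood at 12.43, 12.58, 12.33, 12.27 and 12.27 in wild type and 12.75, 12.80, 12.50, 12.59 and 12.72 in the mutant. Only wild-type F14_2 and mutant F18 crossed, and the difference of 0.29 ± 0.08 (SE) gave an adjusted p of 0.151 by limma. Ndufv3, an accessory subunit at the tip of the hydrophilic arm (1424628_a_at), had 10.86, 11.01, 10.92, 10.81 and 10.73 in wild type against 11.32, 11.21, 10.94, 11.06 and 11.18, a difference of 0.27 ± 0.08 (SE, adjusted p = 0.176). The membrane-arm subunit Ndufa3 (1452790_x_at) had 11.54, 11.70, 11.40, 11.36 and 11.35 in wild type and 11.97, 11.88, 11.61, 11.66 and 11.71 in the mutant, a difference of 0.30 ± 0.09 (SE, adjusted p = 0.184). In both Ndufv3 and Ndufa3 the wild-type array F14_2 was what closed the gap between the groups. Ndufa12, of the hydrophilic arm (1433513_x_at), read 11.63, 11.81, 11.61, 11.64 and 11.53 in wild type and 12.12, 12.05, 11.72, 11.72 and 11.98 in the mutant, a difference of 0.27 ± 0.09 (SE, adjusted p = 0.209). Its probe set 1425919_at, at 4.34 in wild type, had a difference of -0.19 (adjusted p = 0.612). Ndufa13, a membrane-arm subunit also studied in cell death (1430713_s_at), had 11.43, 11.69, 11.48, 11.40 and 11.45 in wild type and 11.83, 11.69, 11.60, 11.62 and 11.67 in the mutant, a difference of 0.19 ± 0.07 (SE, adjusted p = 0.246).

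The other accessory subunits had differences between 0.07 and 0.28. Ndufs4, an accessory subunit whose loss causes a Leigh-like disease in mice (1448959_at), had a difference of 0.28 ± 0.12 (SE, limma adjusted p = 0.309), and Ndufab1, the mitochondrial acyl carrier protein, one of 0.24 ± 0.09 (SE, adjusted p = 0.255). On Ndufab1 another probe set, 1428160_at, at 5.71 in wild type and 6.17 in the mutant, had a larger difference, 0.46 (adjusted p = 0.137), with no overlap of the groups, while 1435934_at stood at -0.11 (adjusted p = 0.763). Ndufb8, of the membrane arm, had 0.27 ± 0.15 (SE, adjusted p = 0.410) and Ndufa10 had 0.21 ± 0.17 (SE, adjusted p = 0.550), both with wide errors. Ndufa2 was near the bottom, at 0.11 ± 0.06 (SE, adjusted p = 0.431). Ndufb1 was read at 3.73, 3.74, 3.72, 3.74 and 3.73 in wild type and 3.97, 3.73, 3.74, 3.73 and 3.85 in the mutant, so that only F12 and F20 left the common level.

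Ndufa4 and its paralogue Ndufa4l2 carry complex I symbols, although the Ndufa4 protein is now placed in complex IV. Ndufa4 (1424085_at) stood at 11.41, 11.65, 11.48, 11.44 and 11.21 in wild type and 11.87, 11.76, 11.44, 11.59 and 11.63 in the mutant, a difference of 0.22 ± 0.10 (SE, limma adjusted p = 0.322), close to the median of the subunits. Ndufa4l2, known as a target of hypoxia signalling (1434905_at), was dim, from 2.74 to 3.03 in wild type and from 2.74 to 3.01 in the mutant group. Its difference was -0.10, with p = 0.222 by an exact permutation test (two-sided). For Ndufb4 (1432427_at), at 2.19 ± 0.01 and 2.20 ± 0.01 (SD, n = 5 each), the same exact test gave p = 0.198, and the smallest p that 5 against 5 arrays allow is 0.00794. Near the bottom of the array's range such values have little room to differ.

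The assembly factors were less uniform than the subunits. Ndufaf1, which acts on the membrane arm (1423711_at), stood at 6.96, 6.72, 7.15, 6.98 and 6.70 in wild type and 7.57, 7.24, 6.95, 7.07 and 7.07 in the mutant, a difference of 0.28 ± 0.13 (SE, limma adjusted p = 0.321). Ndufaf2, a paralogue of Ndufa12 that acts late in assembly (1452923_at), had 6.60, 6.79, 6.73, 6.92 and 6.58 in wild type and 7.04, 7.13, 6.81, 6.88 and 6.93 in the mutant, a difference of 0.23 ± 0.09 (SE, adjusted p = 0.237). In both genes all 5 mutant arrays were above the wild-type mean and the groups overlapped. Ndufaf3 and Ndufaf4 work together on the early modules, and their transcripts had differences of opposite sign. Ndufaf3 (1418185_at) was the 1 member of the 42 with a lower mean, at 6.88, 6.97, 6.95, 6.74 and 7.05 in wild type and 7.11, 6.96, 6.62, 6.76 and 6.81 in the mutant, a difference of -0.07 ± 0.10 (SE, adjusted p = 0.736). Ndufaf4 (1427997_at) had 8.01, 8.04, 8.16, 8.11 and 7.84 in wild type and 8.38, 8.26, 8.20, 8.16 and 8.28 in the mutant, a difference of 0.23 ± 0.07 (SE, adjusted p = 0.188), the smallest p among the assembly factors.

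Ndufaf5, which modifies the core subunit Ndufs7 (1428745_a_at), had 5.04, 5.53, 5.24, 5.37 and 5.03 in wild type and 5.69, 5.29, 5.07, 5.27 and 5.35 in the mutant, a difference of 0.09 ± 0.13 (SE, limma adjusted p = 0.75). Ndufaf6, needed for the mitochondrially encoded part of the membrane arm (1429213_at), had 4.75, 5.00, 5.02, 4.74 and 4.72 in wild type and 5.98, 5.24, 5.15, 4.63 and 5.25 in the mutant. Its difference of 0.41 ± 0.20 (SE, adjusted p = 0.358) was the largest of all 42 and was 0.22 without mutant F12 (adjusted p = 0.518), while F19 was the lowest of all arrays. Ndufaf7, a mitochondrial methyltransferase (1427904_s_at), had 6.20, 6.12, 6.20, 6.41 and 6.05 in wild type and 6.30, 6.33, 6.27, 6.21 and 5.90 in the mutant, a difference of 0.01 ± 0.10 (SE, adjusted p = 0.973). Ndufaf8, a partner of Ndufaf5 (1457826_a_at), had 7.97, 8.17, 8.05, 7.85 and 7.74 in wild type and 8.26, 8.20, 8.14, 7.85 and 7.90 in the mutant, a difference of 0.12 ± 0.10 (SE, adjusted p = 0.597). Its probe set 1448003_at, at 3.80 in wild type, had a difference of -0.03 (adjusted p = 0.784).

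Subunits were set against assembly factors as the mean log2 level of the 34 tested subunits minus that of the 8 assembly factors on each array, a gap whose size depends on the probes and of which only the differences between arrays can be read. The gap was 3.98, 4.07, 3.83, 3.82 and 3.90 on the wild-type arrays and 3.92, 4.07, 3.90, 3.99 and 4.07 on the mutant arrays. The groups overlapped nearly throughout, at 3.92 ± 0.10 and 3.99 ± 0.08 (SD, n = 5 each), and the difference of 0.07 was smaller than either SD. Leaving out each array in turn gave 0.04 to 0.11, and quantile normalisation gave 0.02. Relative to the subunits, the assembly factors showed a shift smaller than the spread between arrays.

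The subunits ordered the arrays alike. The mean of the 34 subunits was 10.53, 10.74, 10.52, 10.46 and 10.37 on the wild-type arrays and 10.96, 10.90, 10.55, 10.60 and 10.76 on the mutant arrays, so that wild-type F14_2 lay above mutant F18 and F19, which were close to the other wild-type arrays. Mutant F12 held the highest value of 23 subunits and mutant F13 that of 11, which accounts for all 34. Wild-type F17 held the lowest value of 26, F16 that of 4, F15 that of 3 and F11 that of 1. On F12 and on F20 all 34 subunits lay above their own median over the 10 arrays, and on F17 0 did. Within the mutant group F18 had 9 and F19 had 20 of 34 above that median, and within wild type F14_2 had 32. The assembly factors shared this order in part, with F12 highest for 6 of 8 and F17 lowest for 5 of 8.

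**Figure D2:**
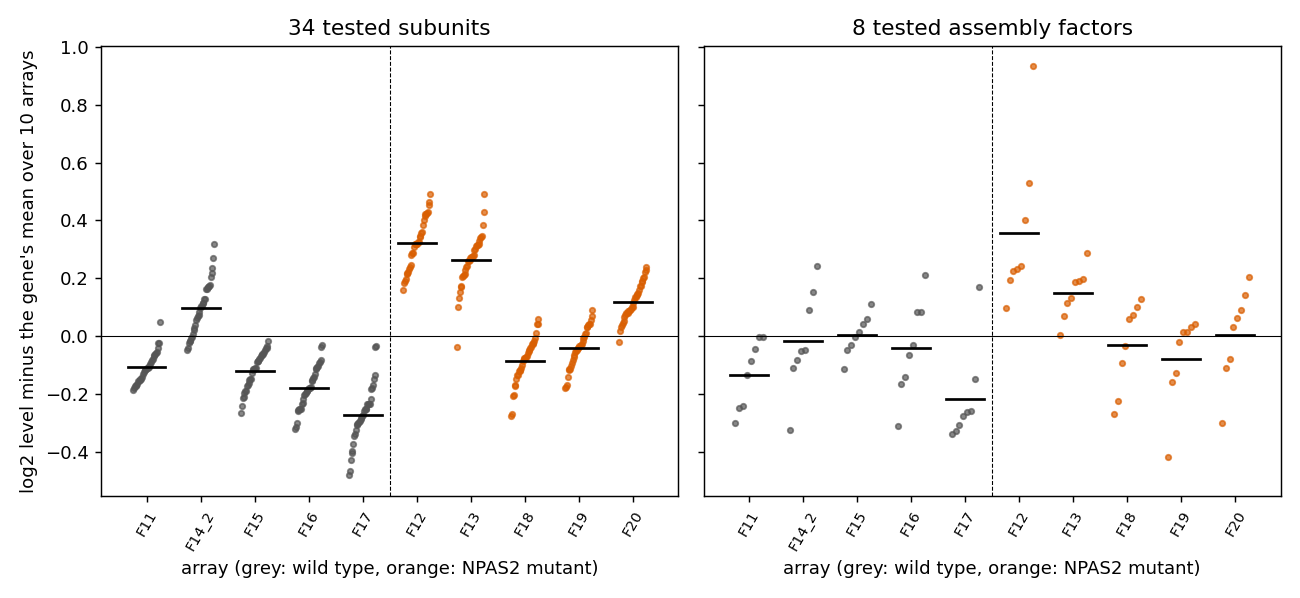
Each point is 1 tested gene on 1 array, as its log2 level minus its own mean over the 10 arrays, with subunits on the left, assembly factors on the right and black bars for the mean of an array. The subunits lie close together on each array, highest on mutant F12 and F13 and lowest on wild-type F17, while wild-type F14_2 lay above mutant F18 and F19.

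Markers of brown fat had much the same order of arrays, with F14_2 apart. The aortic label was checked on 8 smooth muscle markers, whose mean log2 level lay between 10.59 and 11.04 on all arrays, and 7 of the 8 had a lower mean in the mutant (median difference -0.21, 0 called by limma, 4 lower at an unadjusted p of 0.05). Over all tested probe sets 57.6% had a lower mean and 10.6% were lower at that p. The part of smooth muscle in the complex I differences was not tested. The brown fat markers came from a list of Ucp1, Cidea, Dio2, Elovl3, Prdm16, Slc27a2, Zic1, Otop1, Adrb3, Ppara, Cox8b, Cox7a1, Cpt1b and Fabp3. Whether each of them reads only brown fat in this tissue was not tested. Of the 12 found on the array 11 were tested, and 9 of these had a higher mean in the mutant and 2 a lower one. Their differences ran from -0.27 to 2.57 (median 0.60), with 0 called by limma (lowest adjusted p 0.111) and 8 higher at an unadjusted p of 0.05. Their mean was 8.90, 8.91, 8.74, 8.74 and 8.43 on the wild-type arrays and 9.68, 9.55, 9.12, 9.27 and 9.45 on the mutant arrays, with no overlap. Ucp1, the uncoupling protein that defines brown adipocytes, averaged 11.42 in wild type against 12.42 in the mutant, so brown fat transcripts were abundant in both groups. Zic1, another brown fat marker, was too dim to test. Within wild type F17 was lowest and F14_2 highest in both brown fat markers and subunits, and within the mutant F18 was lowest and F12 highest in both. A bulk sample cannot tell more cells of a type from more RNA per cell.

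**Figure D3:**
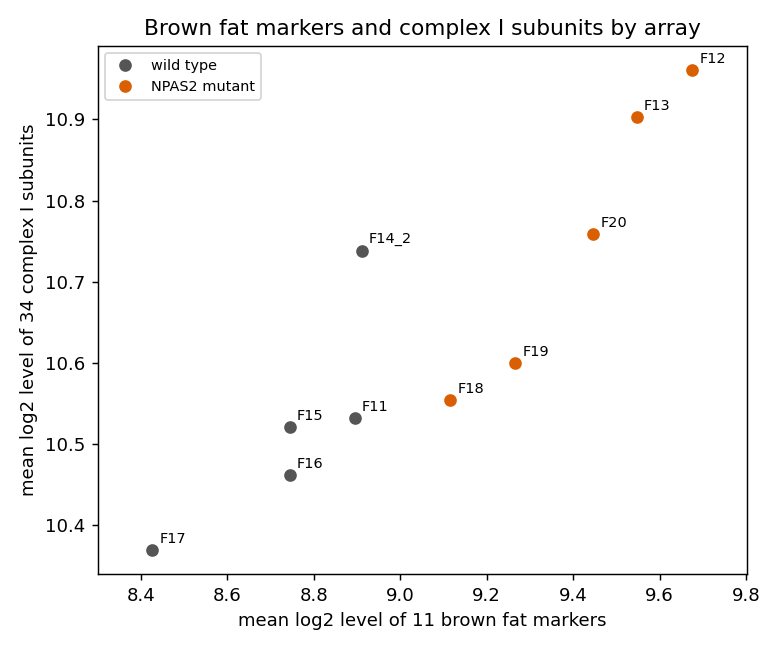
The mean log2 level of 34 complex I subunits (vertical) against that of 11 brown fat markers (horizontal), 1 labelled point per array. Brown fat markers run from 8.43 on wild-type F17 to 9.68 on mutant F12, the arrays that are also lowest and highest for the subunits, and the wild-type F14_2 point lies above the others of its group.

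With the brown fat mean as a covariate in the fit, the sign turned. All 42 tested complex I genes then had a lower fitted level in the mutant, with a median of -0.18 for the subunits and -0.19 for the assembly factors. Again 0 were called by limma (adjusted p from 0.450 to 0.994), with 10 at an unadjusted p of 0.05, all lower, and a median standard error of 0.14. The largest of these differences were -0.61 for Ndufa10, -0.59 for Ndufs1 and -0.48 for Ndufs3, while Ndufc1 (-0.05) and Ndufa1 (-0.04) were near 0. The covariate correlated with the group at 0.87 over the 10 arrays and did not overlap between groups, so this fit compares arrays at a brown fat level that neither group shares. Without Cox8b, Cox7a1 and Ucp1 in the covariate, an alternative added after the data were seen, the median of the subunits was -0.26. How much of the higher complex I level goes with brown fat and how much with the genotype or its background cannot be told apart in these arrays.

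Skeletal muscle, another tissue rich in mitochondria, varied widely between arrays. The mean of 12 skeletal muscle markers ran from 3.23 to 9.90 in wild type and from 3.27 to 11.05 in the mutant group, and all 12 had a higher mean in the mutant, 0 called by limma and 0 at an unadjusted p of 0.05. Mutant F13, with 3.54, had the second highest subunit mean. With that mean as a covariate the median of the subunits was 0.20, all 34 stayed higher, and 15 complex I genes had an unadjusted p under 0.05. Without the 4 arrays richest in these markers (wild-type F16 and mutant F12, F19 and F20), also added after the data were seen, the median was 0.17, 34 of 34 subunits were higher, 4 complex I genes had an unadjusted p under 0.05 and 0 were called. That left only mutant F13 and F18, against wild-type F11, F14_2, F15 and F17. The mean of the 34 subunits was 10.90 on F13 and 10.55 on F18, against 10.37 to 10.74 on those wild-type arrays. F18 thus lay inside the wild-type range. Markers of white and general adipocytes averaged 10.07 in wild type and 10.09 in mutant aorta, with 6 of 7 higher in mean, 1 lower and 0 called by limma. Their members differed in sign, as in Lep (-0.78, adjusted p = 0.155) and Cidec (0.28, adjusted p = 0.189), the pair with an unadjusted p under 0.05, named after their values were seen. Cardiac muscle markers, 4 of 7 tested, averaged 5.50 in wild type and 5.62 in the mutant. Of these 1 had a higher mean (0.70) and 3 a lower one (median difference -0.06, 0 called by limma). Their mean ran from 4.65 to 6.72 in wild type and from 4.77 to 7.78 in the mutant group.

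**Figure D4:**
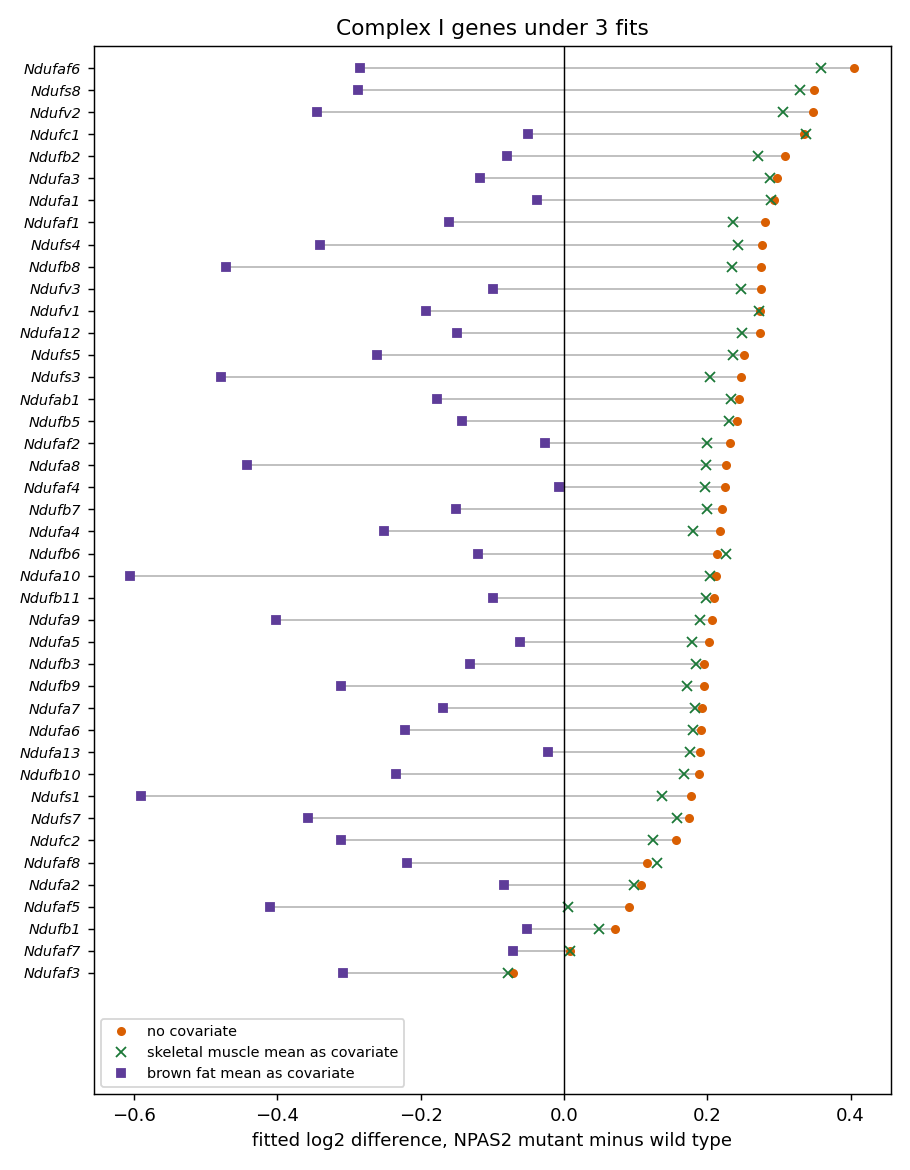
The fitted log2 difference of each of the 42 tested genes without a covariate (circles), with the skeletal muscle mean (crosses) and with the brown fat mean (squares) as covariate. Circles and crosses lie close together, mostly above 0, while all squares lie below 0, down to -0.61 for Ndufa10.

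Most genes of the other respiratory complexes also had a higher mean in the mutant. These were 8 of 8 tested genes of complex II (median difference 0.23), a list that joins 4 subunits with 4 assembly factors, 9 of 9 of complex III (0.28), 8 of 9 of complex IV (0.21) and 14 of 14 of complex V (0.20), with 0 called by limma in each. At an unadjusted p of 0.05 there were 4, 5, 4 and 6 genes higher (for complex II, the subunit Sdhd and the assembly factors Sdhaf2, Sdhaf3 and Sdhaf4), and 1 of complex IV lower, Cox7c (-0.41, adjusted p = 0.245). Cox7c was dim on its probe set, at 4.14 in wild type and 3.72 in the mutant. The other tested complex IV genes averaged 9.70 or more in wild type. The lowest adjusted p values were those of Uqcr10 (0.44, adjusted p = 0.174), Uqcrh (0.27, adjusted p = 0.182) and Cox5a (0.32, adjusted p = 0.182), structural subunits of complexes III and IV. Of complex I the mitochondrial genome encodes several subunits, and ND5 was read by 1 probe set, at 14.15 in wild type and 14.24 in the mutant (adjusted p = 0.525). The highest value on any array was 14.74, so ND5 may have had little room to differ. Assembly factors not named Nduf were split, with 7 of 10 higher, a median difference of 0.07 and 0 called. Dmac2, which helps the distal membrane arm to assemble, had the lowest p of these, with 0.34 (adjusted p = 0.182). The regulators of mitochondrial genes lay on both sides of 0, from -0.35 to 0.43, with 6 of 8 higher, a median of 0.04 and 0 called by limma. Those of smallest p were Yy1 (-0.17, adjusted p = 0.322), Esrra (0.32, adjusted p = 0.324) and Ppargc1b (0.43, adjusted p = 0.347). Nrf1, named here after its values were seen, had the largest lower difference (-0.35, adjusted p = 0.391), with 0 of 5 mutant arrays above the wild-type mean.

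Most other probe sets of the same genes pointed the same way. Of the 44 genes 22 had more than 1 probe set, and of the 39 other probe sets that were tested 34 were higher in mean in the mutant and 5 lower, with a median difference of 0.25. At an unadjusted p of 0.05, 21 were higher and 0 lower, and 0 were called by limma. The 5 with a lower mean were those of Ndufa12, Ndufab1, Ndufaf8, Ndufb2 and Ndufs4 (1418117_at, -0.05, adjusted p = 0.722). Probe sets of a gene share its transcript and are not replicates. For 9 genes the probe set used has a suffix (_x_at or _s_at) that marks probes shared with other transcripts. A further 10 probe sets name a Nduf gene together with other genes and were not used.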

How the data were processed

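Per the labels, total RNA of aorta was labelled with biotin and hybridised to Affymetrix MOE 430V2 arrays. The authors deposited log2 values, 1 per probe set and array, already summarised and normalised. GCRMA and MAS5 are named in the submitters' processing notes, without saying which made the table. The scale follows from the range of the values, 1.10 to 14.74, with an upper quartile between 5.40 and 5.55 on every array. The number of arrays limits the precision, and the sources used here name no batch. Probe sets above their array's median on at least 5 of 10 arrays were tested (22340 of 45101). Mutant and wild type were compared with limma 3.58.1 in R 4.3.3 (lmFit and eBayes, two-sided). P values were adjusted by Benjamini and Hochberg's method across the tested probe sets, and 0.05 was the threshold. The procedure was tested on simulated data. Gene names come from the platform annotation, and all 44 symbols are those of GRCm38.p6. Values on every array are given for the core subunits, the 8 subunits of smallest unadjusted p, the assembly factors, Ndufa4 and Ndufb1, the last chosen after its values were seen, as were the further probe sets of Ndufc1 and Ndufab1 whose groups overlap differently. The members and lists were chosen with earlier results of these data known. Alternatives covered normalisation, filter, variance model, test, probe set, membership, covariates, threshold and leaving out each array.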

Additional observations from a re-analysis of the deposited data

How the results depend on the processing

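In every setting 0 complex I genes were called. Over the 23 settings with values kept for single genes, the lowest limma adjusted p was 0.0770 (Ndufc1, with the filter at the 75th percentile). Of 960 values for the 42 tested genes over these 23 settings, 911 kept their direction and 49 reversed. Changing the filter, the test or the threshold, or fitting with trend and robust, leaves each difference as it was, so no reversal was possible there. The brown fat covariate without Cox8b, Cox7a1 and Ucp1, which left 0 subunits higher, was not among the 23 settings. Over the whole array 48 probe sets were called, against 17 with no filter, 141 with the stricter filter, 13 with an ordinary one-way analysis, 7 with the skeletal muscle covariate, 191 at an adjusted p of 0.10, 0 with the brown fat covariate, 0 with it lacking Cox8b, Cox7a1 and Ucp1, and 0 without the 4 arrays richest in skeletal muscle markers. Of the 48 calls 21 were higher in the mutant, against 32 of 61 with quantile normalisation and 17 of 48 with median centring. Leaving out each array in turn gave 9 to 43 calls over the array, 9 to 29 complex I genes at an unadjusted p of 0.05, medians of 0.17 to 0.28 for the subunits and 0.12 to 0.21 for the assembly factors, and a gap between them of 0.044 to 0.11. The called count differed from 48 by more than 1.5 times without F15, F16, F17, F12, F13, F18, F19 or F20, each left out alone. Complex I genes at an unadjusted p of 0.05, 23 in all, numbered 10 with the brown fat covariate, 15 with its shorter form, 15 with the skeletal muscle covariate and 4 without those 4 arrays. With the brown fat covariate 0 subunits were higher, the medians were -0.18 for subunits and -0.19 for assembly factors and the gap was -0.045. The gap, 0.07 in all, was 0.02 with quantile normalisation. With the shorter form of the brown fat covariate the same 4 values were 0, -0.26, -0.25 and -0.059.

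Single genes that reversed under the brown fat covariate were Ndufa1 (-0.037), Ndufa10 (-0.61), Ndufa12 (-0.15), Ndufa13 (-0.022), Ndufa2 (-0.084), Ndufa3 (-0.12), Ndufa4 (-0.25), Ndufa5 (-0.061), Ndufa6 (-0.22), Ndufa7 (-0.17), Ndufa8 (-0.44), Ndufa9 (-0.40), Ndufab1 (-0.18), Ndufaf1 (-0.16), Ndufaf2 (-0.027), Ndufaf4 (-0.0070), Ndufaf5 (-0.41), Ndufaf6 (-0.28), Ndufaf7 (-0.071), Ndufaf8 (-0.22), Ndufb1 (-0.051), Ndufb10 (-0.23), Ndufb11 (-0.10), Ndufb2 (-0.079), Ndufb3 (-0.13), Ndufb5 (-0.14), Ndufb6 (-0.12), Ndufb7 (-0.15), Ndufb8 (-0.47), Ndufb9 (-0.31), Ndufc1 (-0.050), Ndufc2 (-0.31), Ndufs1 (-0.59), Ndufs3 (-0.48), Ndufs4 (-0.34), Ndufs5 (-0.26), Ndufs7 (-0.36), Ndufs8 (-0.29), Ndufv1 (-0.19), Ndufv2 (-0.34) and Ndufv3 (-0.10). Ndufaf7 also reversed with median centring (-0.012) and ranged from -0.027 to 0.084 as arrays were left out. Ndufa12 was at -0.19 without probe sets of shared suffix, and Ndufaf5 at -0.031 without the 4 arrays. The dim Ndufb4 stood at -0.0023 with quantile normalisation and -0.00903 with median centring. The cause of these shifts was not tested. With 5 arrays per group and a standard error near 0.10, differences of the size seen here were not separable from 0 after adjustment over the array, and dim probe sets carry little signal. Replicate names are not shared between the groups. No paired analysis was possible because the labels pair no arrays.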
